A study of Mus musculus with 20 samples.

Results

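Described here are 8 genes taken as markers of the fibroblasts of the soft meninges, the membranes that wrap the brain: Dcn, Lum, Ogn, Fmod, Islr, Aldh1a2, Slc6a13 and Igf2. They were taken by symbol from the count tables of mouse frontal cortex and hippocampus. All 8 were listed in both tables, among 17148 genes that the tables share. Cortex and hippocampus were each sampled in 10 libraries, 5 from wild-type mice (Ncs1+/+) and 5 from Ncs1-/- mice, which gives 4 groups of 5. The protein of Ncs1, neuronal calcium sensor 1, binds calcium in neurons. The strain background of all 20 libraries was C57Bl6/J, and the labels give no age, no further allele and no treatment. The making of the Ncs1 allele was not given in the sources used here. Brains were dissected, tissue was frozen, and total RNA was sequenced, so each library holds RNA of every cell type in the piece of tissue that was cut.

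Fibroblasts of the pia and arachnoid lie on the brain surface and along the vessels that enter it, and they lay down the collagens and proteoglycans of these membranes. Small leucine-rich proteoglycans are secreted matrix proteins that bind collagen fibrils and set their spacing. The same membranes are known as a source of retinoic acid and of insulin-like growth factor 2, and carry transporters that move GABA and other small solutes. In bulk tissue, fewer cells of a type and less RNA per cell cannot be told apart. Which cell types supplied the reads of each gene was not tested, so a difference in a gene need not be a difference in fibroblasts.

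Between 16.6 M and 34.6 M counts were deposited per library (median 21.0 M). Levels are given as CPM, counts scaled to a depth of 1 M reads after TMM adjustment over the 20 libraries. The targeted gene, Ncs1, lay at 351 to 387 CPM in wild-type cortex against 255 to 265 CPM in knockout cortex, and at 427 to 471 CPM against 279 to 328 CPM in hippocampus, without overlap between the genotypes. Separate animals are not named for the libraries of a group, and p-values therefore measure only how these samples differ among themselves, technical spread included. Other markers of leptomeningeal fibroblasts, summed over a list, were present in every library, though not each gene was. Slc22a2 fell to 0 CPM and Slc47a1 to 0.0388 CPM in knockout hippocampus. The summed level of the 22 listed ones ran from 95.1 to 178 CPM in 8 hippocampus libraries and stood at 260 CPM in wild-type hippocampus replicate 2 and 257 CPM in knockout hippocampus replicate 5. These 2 libraries stood apart for most of the 8 genes too, among the top 2 of hippocampus for 7 and 6 of them. Summed over the 8 genes, knockout hippocampus replicate 2 stood as high, at 375 CPM against 374 and 358 CPM in these 2 libraries. Genotype calls of the members in hippocampus, region calls and pattern correlations are also given without 1 or both of these 2 libraries. The spread between libraries and the list results are given only with them. Choroid plexus markers, a list of 17 genes, were summed to between 39.3 and 3969 CPM in hippocampus. The highest sums came from knockout replicate 2 at 3969 CPM, wild-type replicate 4 at 2582 CPM and knockout replicate 4 at 460 CPM.

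**Figure D1:**
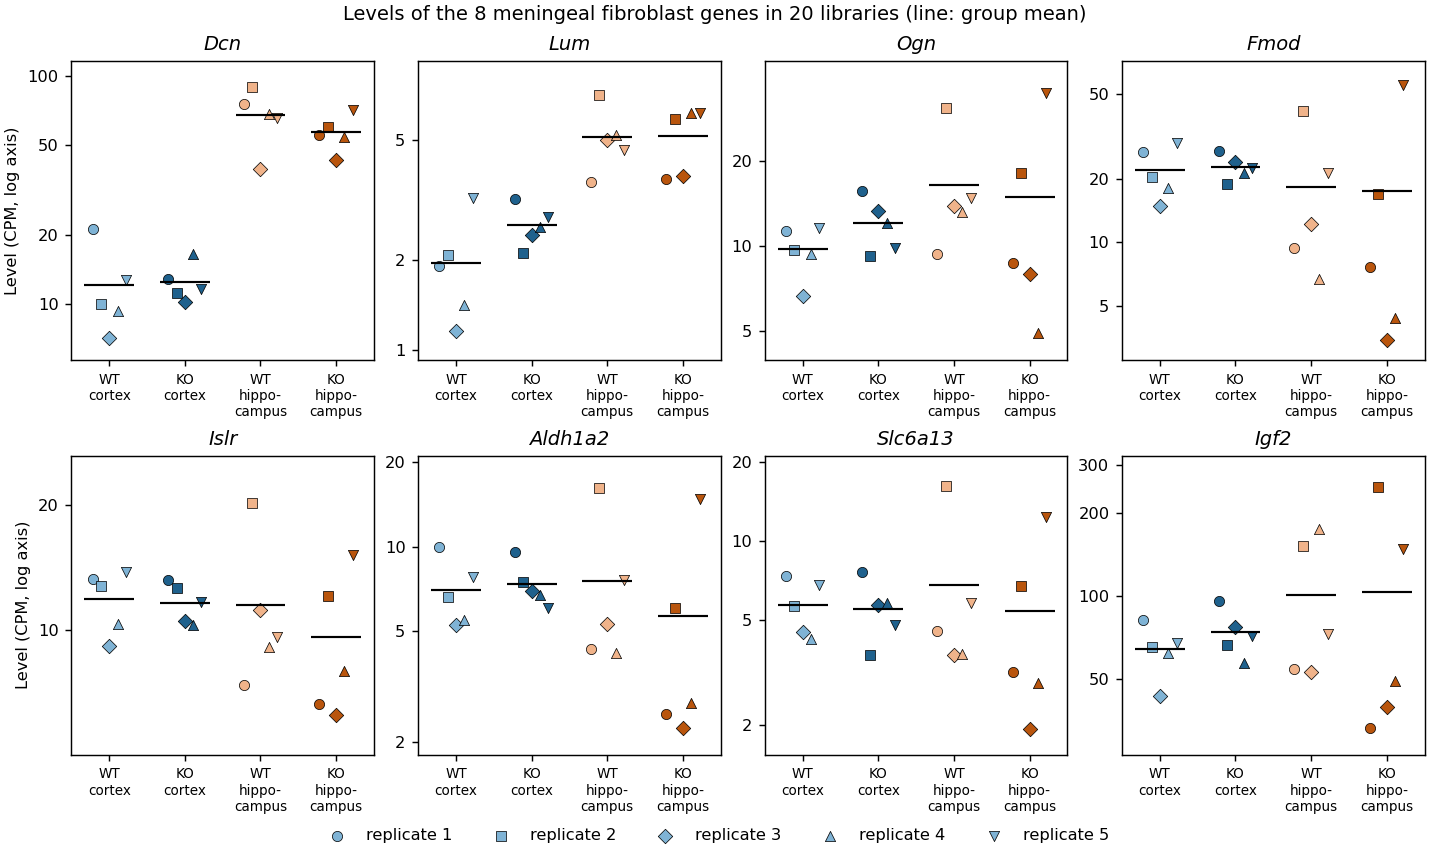
Level of each of the 8 genes (CPM, log axis) in the 20 libraries, by group, with a point per library and a line at the group mean. Dcn and Lum lay higher in every hippocampus library than in every cortex library of the same genotype, and none of the 8 genes separated the genotypes.

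Dcn and Lum, the neighbouring genes of decorin and lumican, were the members that differed most clearly between regions. Decorin and lumican are proteoglycans that bind collagen fibrils. Dcn lies at chr10:97479500-97518163 and Lum at chr10:97565501-97572703, both on the plus strand of GRCm38 and 47.3 kb apart (RefSeq gene models). In cortex, Dcn was at 21.3, 9.93, 7.06, 9.30 and 12.7 CPM in wild-type replicates 1 to 5 and at 12.8, 11.1, 10.2, 16.5 and 11.6 CPM in knockout replicates 1 to 5. In hippocampus it was at 75.3, 89.8, 39.0, 68.5 and 65.5 CPM in wild-type libraries and at 55.3, 60.1, 43.0, 54.1 and 70.8 CPM in knockout libraries. The lowest hippocampus library, wild-type replicate 3, was still above the highest cortex library. Genotypes overlapped in both regions.

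Lum had the lowest level per length of the 8 genes in cortex. Its cortex values were 1.91, 2.07, 1.16, 1.41 and 3.22 CPM in wild-type libraries and 3.19, 2.10, 2.41, 2.56 and 2.78 CPM in knockout libraries. In hippocampus the values were 3.63, 7.06, 5.00, 5.22 and 4.64 CPM in wild-type libraries and 3.72, 5.90, 3.80, 6.17 and 6.18 CPM in knockout libraries. Cortex values rested on 29 to 62 counts per library, where the counting error alone is 18.6% at the lowest. Each hippocampus library lay above each cortex library of its genotype, as for Dcn.

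Ogn encodes osteoglycin, also called mimecan, a proteoglycan of the same family, and lies at chr13:49608015-49624501 on the plus strand. In cortex it was at 11.3, 9.70, 6.67, 9.35 and 11.6 CPM in wild-type libraries and at 15.7, 9.19, 13.3, 12.1 and 9.86 CPM in knockout libraries. Hippocampus libraries spread further, at 9.39, 30.9, 13.9, 13.2 and 14.8 CPM in wild-type libraries and at 8.68, 18.1, 7.93, 4.93 and 34.7 CPM in knockout libraries. Wild-type replicate 2 and knockout replicate 5 were the high libraries of their groups, and the groups overlapped. The gene Cenpp lies across Ogn on the other strand without a shared exon.

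Fmod, which encodes the collagen-binding proteoglycan fibromodulin and lies at chr1:134037254-134048280 on the plus strand, varied most of all members in hippocampus. In cortex it was at 26.8, 20.4, 14.9, 18.1 and 29.4 CPM in wild-type libraries and at 27.0, 18.9, 24.1, 21.2 and 22.3 CPM in knockout libraries. In hippocampus it was at 9.44, 41.7, 12.3, 6.69 and 21.2 CPM in wild-type libraries and at 7.64, 16.9, 3.46, 4.39 and 55.3 CPM in knockout libraries. The highest knockout hippocampus library held 16.0 times the level of the lowest, and the highest wild-type library 6.23 times. Of the 5 knockout hippocampus libraries, 4 lay below every knockout cortex library and 1, replicate 5, lay above every one.

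Islr encodes a secreted leucine-rich repeat protein with an immunoglobulin domain that is found in fibroblast-like cells. It lies at chr9:58156246-58159236 on the minus strand. In cortex it was at 13.3, 12.8, 9.14, 10.4 and 13.8 CPM in wild-type libraries and at 13.2, 12.6, 10.5, 10.3 and 11.7 CPM in knockout libraries, the smallest cortex spread of the members on a log2 scale. Hippocampus held 7.35, 20.3, 11.2, 9.09 and 9.65 CPM in wild-type libraries and 6.63, 12.1, 6.26, 7.96 and 15.2 CPM in knockout libraries. The same libraries, wild-type replicate 2 and knockout replicate 5, were the highest of their groups.

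Aldh1a2 and Slc6a13 stand for the metabolic side of these cells. Aldh1a2, at chr9:71215789-71296243 on the plus strand, encodes retinaldehyde dehydrogenase 2, an enzyme that makes retinoic acid. In cortex it was at 9.95, 6.59, 5.25, 5.45 and 7.78 CPM in wild-type libraries and at 9.53, 7.49, 6.93, 6.73 and 6.05 CPM in knockout libraries. In hippocampus it was at 4.31, 16.3, 5.28, 4.18 and 7.61 CPM in wild-type libraries and at 2.53, 6.02, 2.25, 2.76 and 14.7 CPM in knockout libraries. A single library of each hippocampus group stood high, replicate 2 in wild type and replicate 5 in knockout, and the groups overlapped.

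Slc6a13, at chr6:121300288-121337721 on the plus strand, encodes the GABA transporter GAT2, which also carries taurine. Its cortex values were 7.37, 5.65, 4.51, 4.23 and 6.80 CPM in wild-type libraries and 7.61, 3.69, 5.72, 5.83 and 4.78 CPM in knockout libraries. Its hippocampus values were 4.55, 16.3, 3.69, 3.71 and 5.82 CPM in wild-type libraries and 3.18, 6.76, 1.92, 2.87 and 12.4 CPM in knockout libraries. The pattern over hippocampus libraries was close to that of Aldh1a2, with the same highest library in each genotype.

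Igf2, at chr7:142650768-142666816 on the minus strand, encodes insulin-like growth factor 2, a secreted ligand that acts through the IGF1 receptor and is cleared by the IGF2 receptor. It had the highest median level per length of the 8 genes in both regions. Its values were 81.9, 65.5, 43.4, 62.5 and 67.9 CPM in wild-type cortex and 96.5, 66.5, 77.4, 57.1 and 72.0 CPM in knockout cortex. Hippocampus held 54.6, 152, 53.1, 175 and 73.1 CPM in wild-type libraries and 33.2, 249, 39.8, 49.2 and 148 CPM in knockout libraries. Besides wild-type replicate 2 and knockout replicate 5, wild-type replicate 4 and knockout replicate 2 were high. Those 2 libraries were the ones with the most Ttr, the choroid plexus transcript of transthyretin, at 1999 and 3118 CPM. The choroid plexus is also known to make Igf2. Without the 3 libraries with the most Ttr (wild-type replicate 4, knockout replicates 2 and 4), the log2 difference of Igf2 between hippocampus and cortex was 0.36 in wild type, against 0.65 with all libraries, and -0.00276 in knockout, against 0.49. None of the 4 values passed in edgeR. The part of the choroid plexus in the Igf2 values was not tested. The antisense gene Igf2os overlaps exons of Igf2, and since the strand setting was not given in the sources used here, reads of the pair cannot be told apart. Igf2os was listed at group means of 0.182 to 0.418 CPM.

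The promoters of 4 members with unlike base composition are shown. Whether promoter sequence bears on the levels of these genes was not tested. The 250 bases before the first annotated start that is listed were taken from RefSeq (GRCm38.p6), which gave 6 of the 8 members. Dcn and Lum were not among them. Sequences are printed 5′ to 3′ on the strand of the gene, at chr13:49607765-49608014 for Ogn, chr1:134037004-134037253 for Fmod and chr9:71215539-71215788 for Aldh1a2, all on the plus strand, and at chr9:58158555-58158804 for Islr on the minus strand, where the start lies inside the longer gene model. Capitals mark CG dinucleotides.
Ogn: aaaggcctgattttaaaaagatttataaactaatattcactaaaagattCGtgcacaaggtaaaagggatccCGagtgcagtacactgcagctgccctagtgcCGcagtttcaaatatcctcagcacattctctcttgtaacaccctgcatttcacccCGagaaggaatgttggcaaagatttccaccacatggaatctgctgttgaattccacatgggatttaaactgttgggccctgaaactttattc
Fmod: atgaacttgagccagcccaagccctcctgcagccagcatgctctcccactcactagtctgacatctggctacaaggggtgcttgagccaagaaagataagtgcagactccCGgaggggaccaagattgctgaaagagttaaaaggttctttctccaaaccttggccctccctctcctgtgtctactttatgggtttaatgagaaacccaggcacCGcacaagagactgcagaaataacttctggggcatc
Aldh1a2: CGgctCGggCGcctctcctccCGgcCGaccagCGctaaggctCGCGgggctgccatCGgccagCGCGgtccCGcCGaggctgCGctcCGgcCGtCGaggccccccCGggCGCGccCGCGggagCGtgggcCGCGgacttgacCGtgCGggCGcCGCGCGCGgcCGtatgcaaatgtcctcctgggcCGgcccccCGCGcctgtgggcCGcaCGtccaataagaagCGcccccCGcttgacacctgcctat
Islr: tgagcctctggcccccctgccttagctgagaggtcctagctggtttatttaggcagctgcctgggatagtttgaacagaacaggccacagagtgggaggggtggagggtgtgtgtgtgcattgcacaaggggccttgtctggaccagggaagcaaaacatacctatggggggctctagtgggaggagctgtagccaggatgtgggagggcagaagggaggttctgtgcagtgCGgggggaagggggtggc
Aldh1a2 held 40 CG dinucleotides and 77.6% G or C, while Ogn held 4 and 42%, Fmod 2 and 51.2%, and Islr 1 and 59.6%. The median over 27025 mouse promoters of this length was 6 CG dinucleotides and 52% G or C, and Aldh1a2 stood at percentile 98.7 for CG dinucleotides against 38.1 for Ogn, 19.4 for Fmod and 8.26 for Islr.

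Short motifs were searched on both strands in the same 250 bases. The E-box CANNTG was in 6 of 6 member promoters and in 66% of all promoters. GGAATG, the core of the TEAD motif, was in 2 of 6, Ogn and Slc6a13, and in 12.6% of all. TATAAA was in 1, Ogn, and in 13% of all, and CCAAT was in 1, Aldh1a2, and in 34.5% of all. GGGCGG, the GC box, was in Slc6a13 and in 32.9% of all, and the retinoid half-site AGGTCA was in Igf2 and in 13.8% of all. The AP-1 motif TGANTCA, the forkhead motif TGTTTAC, the T-box motif GGTGTGA and the SMAD motif GTCTAGAC were in 0 of 6, and in 6.87%, 3.09%, 3.31% and 0.174% of all. Only the first start of each gene was counted, though Igf2 has 4 listed starts and Slc6a13 has 3. GGAATG also lay before Igf2 starts 2, 3 and 4, and GGGCGG before Igf2 starts 3 and 4. CCAAT lay before Igf2 start 4 and Slc6a13 start 2, and AGGTCA before Slc6a13 start 3. A match is a match of letters only.

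Levels between genes were compared per length, as CPM per kb of exon. In cortex the median over 10 libraries was highest for Igf2 at 11.7 CPM per kb, followed by Fmod at 6.58, Islr at 4.52, Ogn at 4.12, Aldh1a2 at 3.02, Slc6a13 at 1.96, Dcn at 1.95 and Lum at 0.923. In hippocampus the order was Igf2 at 11.2 CPM per kb, Dcn at 10.8, Ogn at 5.28, Islr at 3.49, Fmod at 3.28, Aldh1a2 at 2.12, Lum at 2.09 and Slc6a13 at 1.42. Dcn, the seventh of the 8 in cortex, was the second in hippocampus, and Fmod, the second in cortex, was the fifth there. The ranges of neighbours in this order overlapped in each of 14 pairs. Within libraries the cortex order held in 10 of 10 for Igf2 over Fmod, Fmod over Islr, Ogn over Aldh1a2, Aldh1a2 over Slc6a13 and Dcn over Lum, in 7 for Islr over Ogn and in 5 for Slc6a13 over Dcn. In hippocampus it held in 10 for Fmod over Aldh1a2, in 9 for Dcn over Ogn and Ogn over Islr, in 6 for Igf2 over Dcn, Aldh1a2 over Lum and Lum over Slc6a13, and in 5 for Islr over Fmod.

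The loss of Ncs1 was compared with wild type in each region. In frontal cortex 0 of the 8 genes passed an adjusted p of 0.05 in edgeR's quasi-likelihood test with Benjamini-Hochberg adjustment, against 4 of 14823 genes tested, 0.027%. None of the 8 had an unadjusted p under 0.05 either, a mark that 14.8% of all genes reached, and limma-voom and DESeq2 also called 0 of the 8. The largest differences were those of Lum, at 1.95 ± 0.797 against 2.61 ± 0.409 CPM (SD, n = 5 each), giving a log2 difference of 0.43 (SE 0.24; edgeR adjusted p 0.414), and of Ogn, at 9.72 ± 1.96 against 12.0 ± 2.63 CPM (SD, n = 5 each), giving a log2 difference of 0.32 (SE 0.16; edgeR adjusted p 0.376). Igf2 had a log2 fold change of 0.21 (SE 0.15), Aldh1a2 0.08 (SE 0.17), Dcn 0.07 (SE 0.24), Fmod 0.06 (SE 0.16), Islr -0.02 (SE 0.12) and Slc6a13 -0.04 (SE 0.19), with edgeR adjusted p-values from 0.531 to 0.953. The median of the 8 log2 fold changes was 0.07 and that of all genes tested was 0.00. For none of the 8 did the genotypes separate without overlap, which 2.17% of all genes did. Wild-type replicate 3 was the lowest of the 10 cortex libraries for 7 of the 8 genes.

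**Figure D2:**
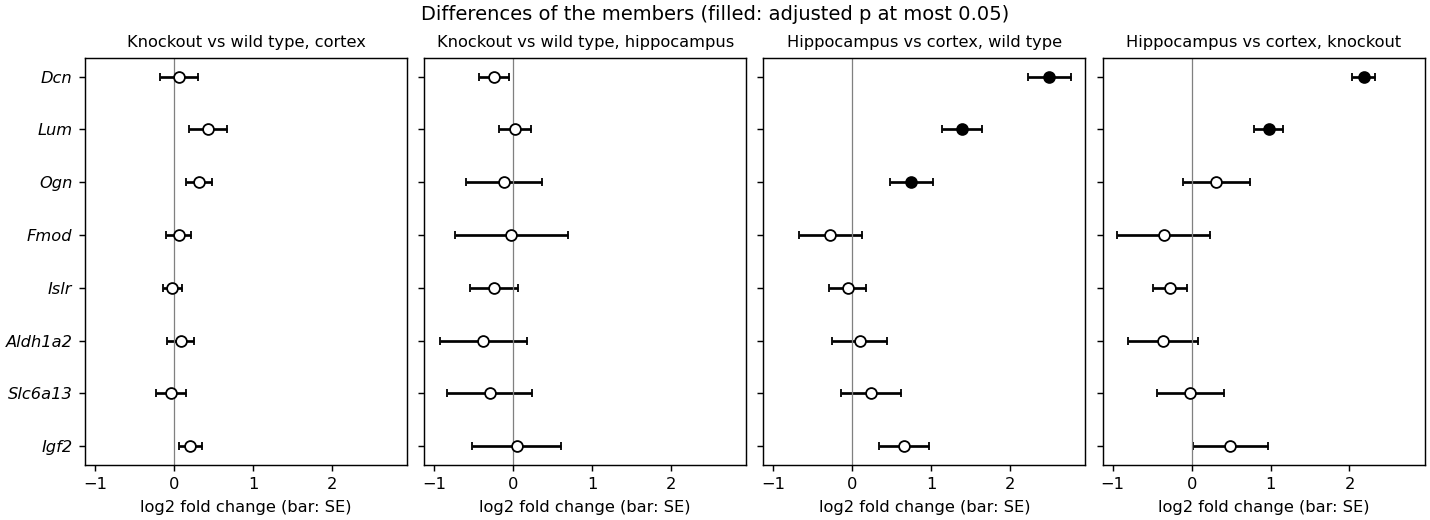
Log2 fold change of the 8 genes in each comparison (edgeR), with bars of 1 standard error and filled points where the adjusted p was at most 0.05. The genotype differences lie around 0 in both regions, with wider bars in hippocampus, and Dcn and Lum lie above 0 in both region comparisons.

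In hippocampus 0 of the 8 genes passed in edgeR, against 4 of 15042 genes tested, 0.0266%. An unadjusted p under 0.05 was reached by 0 of the 8 and by 3.78% of all genes, and limma-voom and DESeq2 called 0 of the 8. Dcn stood at 67.6 ± 18.5 CPM in wild-type libraries and 56.6 ± 10.1 CPM in knockout (SD, n = 5 each), giving a log2 fold change of -0.25 (SE 0.19). Lum stood at 5.11 ± 1.25 and 5.15 ± 1.28 CPM (SD, n = 5 each), giving a log2 fold change of 0.02 (SE 0.20). The edgeR adjusted p of the 8 genes lay between 0.991 and 0.998. The other 6 had standard errors from 0.30 for Islr to 0.72 for Fmod on the log2 scale. Their log2 fold changes were -0.38 for Aldh1a2, -0.30 for Slc6a13, -0.24 for Islr, -0.12 for Ogn, -0.03 for Fmod and 0.04 for Igf2. With errors of this size only large differences of these 6 genes would have been detectable. For none of the 8 did the genotypes separate without overlap, which 0.445% of all genes did. Without wild-type replicate 2 and knockout replicate 5, the log2 fold changes were -0.65 for Aldh1a2, -0.60 for Fmod and -0.22 for Dcn, and again 0 of the 8 passed in edgeR.

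The next question was how cortex and hippocampus differ, asked separately for each genotype. In wild type, Dcn was 5.61-fold higher in hippocampus than in cortex by the ratio of the group means, with a log2 difference of 2.49 (SE 0.27; edgeR adjusted p 9.13e-06). Lum was 2.62-fold higher, with a log2 difference of 1.39 (SE 0.25; edgeR adjusted p 0.000649). Ogn had a log2 difference of 0.75 (SE 0.27; edgeR adjusted p 0.0438). That call was lost in DESeq2 at an adjusted p of 0.0534, in limma-voom at 0.0680 and without any of 6 single libraries, among them hippocampus replicate 2, without which the log2 fold change of Ogn was 0.40 and the edgeR adjusted p 0.0778. So 3 of 8 members passed, all higher in hippocampus, while 39.5% of 14849 genes passed in either direction and 18.8% were higher. The number called is thus near the background, and the description rests on the size for Dcn and Lum. The remaining 5 genes did not pass. Their log2 fold changes were 0.65 (SE 0.32) for Igf2, 0.24 (SE 0.38) for Slc6a13, 0.09 (SE 0.35) for Aldh1a2, -0.06 (SE 0.23) for Islr and -0.28 (SE 0.40) for Fmod.

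In knockout the comparison gave a similar picture for Dcn and Lum. Dcn was 4.55-fold higher in hippocampus by the ratio of the means, with a log2 difference of 2.18 (SE 0.14; edgeR adjusted p 5.93e-08). Lum was 1.97-fold higher, with a log2 difference of 0.98 (SE 0.19; edgeR adjusted p 0.000902). These were 2 of 8 members, against 38.8% of 15032 genes that passed and 19.2% that were higher. The other 6 had log2 fold changes from -0.36 for Aldh1a2 to 0.49 for Igf2. Dcn and Lum were also the 2 members whose regions did not overlap, in wild type, where 29.5% of all genes did not, and in knockout, where 29.8% did not. Cortex and hippocampus libraries carry different lane numbers in their library names, so region and sequencing lane cannot be told apart.

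**Figure D3:**
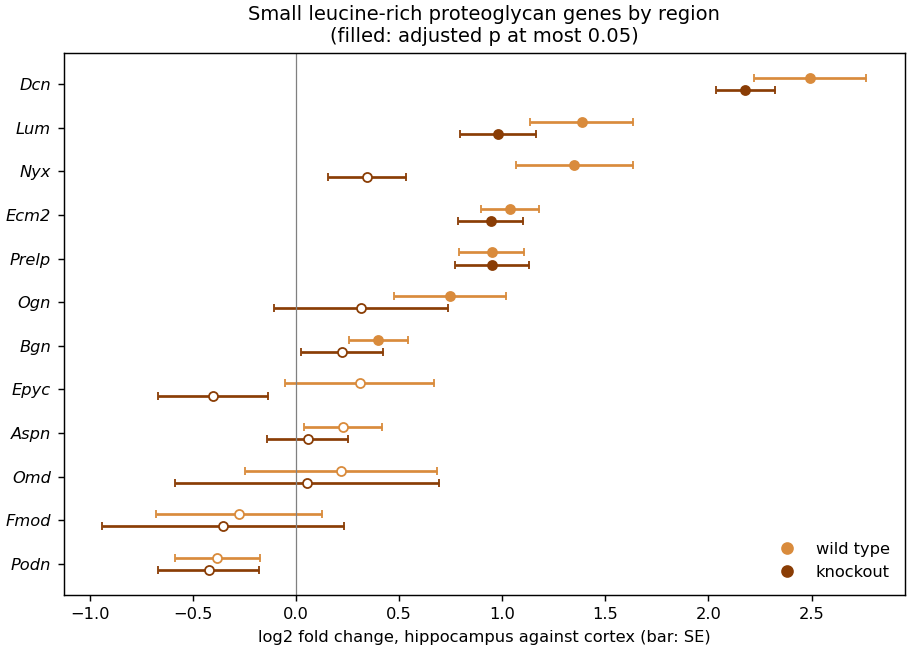
Log2 fold change from cortex to hippocampus of the tested genes of the small leucine-rich proteoglycan family, by genotype (edgeR, bars of 1 standard error, points filled where the adjusted p was at most 0.05). Dcn, Lum, Ecm2 and Prelp lie above 0 in both genotypes, and Fmod lies below 0 with a wide bar.

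Leaving out either library that stood apart changed the region calls of some other members. Without knockout hippocampus replicate 5, 5 of the 8 genes passed in knockout, beside 5830 of 15015 genes tested that passed in either direction. Dcn and Lum stayed higher in hippocampus, at log2 fold changes of 2.09 and 0.91. Fmod was then lower in hippocampus, with a log2 difference of -1.48 (SE 0.35; edgeR adjusted p 0.00528). Aldh1a2 was lower as well, at -1.12 (SE 0.26) with an edgeR adjusted p of 0.00491, and so was Islr, at -0.50 (SE 0.18) with an edgeR adjusted p of 0.0382. Without wild-type hippocampus replicate 2, Fmod was lower in wild-type hippocampus, at a log2 difference of -0.82 (SE 0.30; edgeR adjusted p 0.0480), and Dcn and Lum stayed higher, at 2.38 and 1.25. In that fit 5423 of 14955 genes tested passed in either direction. Slc6a13 passed in neither case. Both libraries were singled out for their high levels of most of these genes. Leaving such a library out lowers the hippocampus level by construction, so the lower calls are a description only. Leaving out wild-type hippocampus replicate 1 brought Igf2 to 0.81 with an edgeR adjusted p of 0.0494.

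Whether the region difference itself changed with genotype was tested as an interaction over the 20 libraries. The log2 interaction estimates of the 8 genes ran from -0.46 for Aldh1a2 to -0.08 for Fmod, each with an edgeR adjusted p of 0.9998. In edgeR 0 of 15310 genes passed, 0%, with 1.4% at an unadjusted p under 0.05, of which 0 were members. DESeq2 called 1 gene and limma-voom 0.

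The spread between hippocampus libraries set 6 of the 8 genes apart from Dcn and Lum. Within groups the SD of the log2 level was 1.35 for Fmod, which ranked 37 of 13921 genes with at least 1 CPM, 1.07 for Igf2 at rank 63, 0.977 for Aldh1a2 at rank 82, 0.970 for Slc6a13 at rank 83, 0.894 for Ogn at rank 100 and 0.551 for Islr at rank 319. Dcn, at 0.368, ranked 962 and Lum, at 0.357, ranked 1024, while the median over all genes was 0.133. In cortex the SD ran from 0.211 for Islr to 0.461 for Dcn, against a median of 0.117 over all genes. Those 6 genes were less spread in cortex than in hippocampus, while Dcn at 0.461 and Lum at 0.409 were more spread there. The gene of rank 1 was Ttr in both regions.

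**Figure D4:**
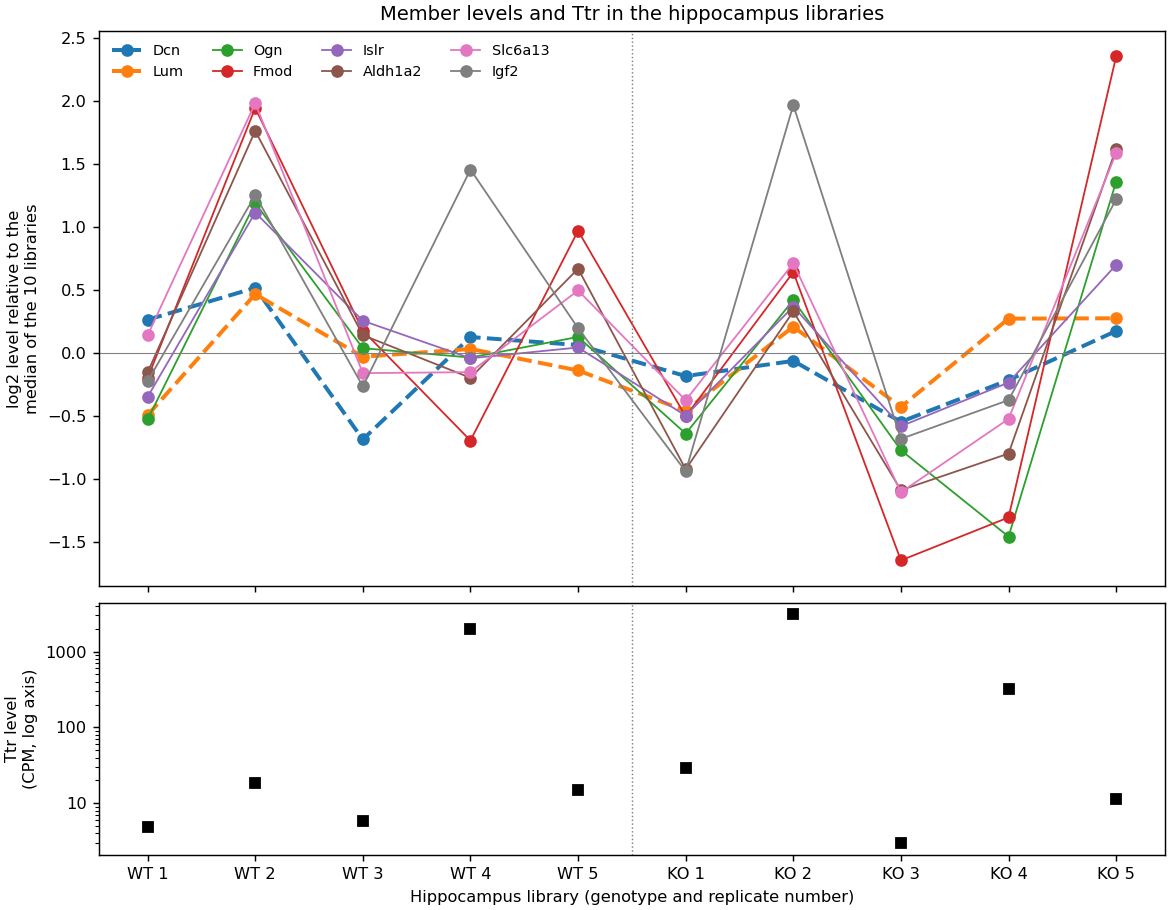
Log2 level of each of the 8 genes in the 10 hippocampus libraries, relative to the gene's median over those libraries, above the Ttr level (CPM, log axis) of the same libraries. Most genes peak in wild-type replicate 2 and knockout replicate 5, Igf2 also in knockout replicate 2 and wild-type replicate 4, and Dcn and Lum move least.

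The libraries at the top and bottom were much the same from gene to gene. Of the 10 hippocampus libraries, wild-type replicate 2 was highest for 5 of the 8 genes and among the top 2 for 7. Knockout replicate 5 was highest for 2 and among the top 2 for 6. Knockout replicate 3 was lowest for 4 and among the bottom 2 for 7. In the 2 high libraries the summed level of mural cell markers, the genes of pericytes and smooth muscle, was also the highest of hippocampus, at 383 and 431 CPM against 291 to 331 CPM in the other 8. Arachnoid barrier markers were summed to 15.9 and 16.8 CPM there, to 17.9 CPM in knockout replicate 2 and to between 4.81 and 10.7 CPM in the others. Endothelial markers were also highest in the 2 libraries, at 356 and 359 CPM against 312 to 346 CPM in the other 8. Border macrophage markers were summed to 26.5 CPM in wild-type replicate 2 and 39.8 CPM in knockout replicate 5, against 12.6 to 30.9 CPM in the others. Other lists were not highest in wild-type replicate 2 and knockout replicate 5. Ependymal markers summed to 11.9 and 18.1 CPM, in a hippocampus range of 10.9 to 33.7 CPM. Surface astrocyte markers summed to 617 and 587 CPM, in a range of 525 to 669 CPM. Red blood cell markers summed to 88.0 and 102 CPM, in a range of 44.2 to 151 CPM. The part of these cell types in the spread of the 8 genes was not tested.

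Ratios between members in the same library do not depend on the scaling. In cortex the ratio of Dcn to Fmod, in CPM and not per length, lay between 0.423 and 0.796. In hippocampus it ran from 1.28 in knockout replicate 5 to 12.4 in knockout replicate 3, a 9.70-fold range. The ranges of this ratio in cortex and hippocampus did not overlap. The ratio of Igf2 to Fmod lay between 2.31 and 3.57 in cortex. In hippocampus it was 2.68 in knockout replicate 5 and 3.64 in wild-type replicate 2, near the cortex values, and 26.1 in wild-type replicate 4 and 14.7 in knockout replicate 2, the libraries with the most Ttr. It was also high, at 11.5, in knockout replicate 3, where Ttr was lowest of the hippocampus libraries at 2.96 CPM, and at 11.2 in knockout replicate 4, where Ttr was at 319 CPM. In the other 4 libraries it lay between 3.45 and 5.78. The ratio of Aldh1a2 to Fmod was steadier, from 0.265 to 0.397 in cortex and from 0.266 to 0.651 in hippocampus.

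**Figure D5:**
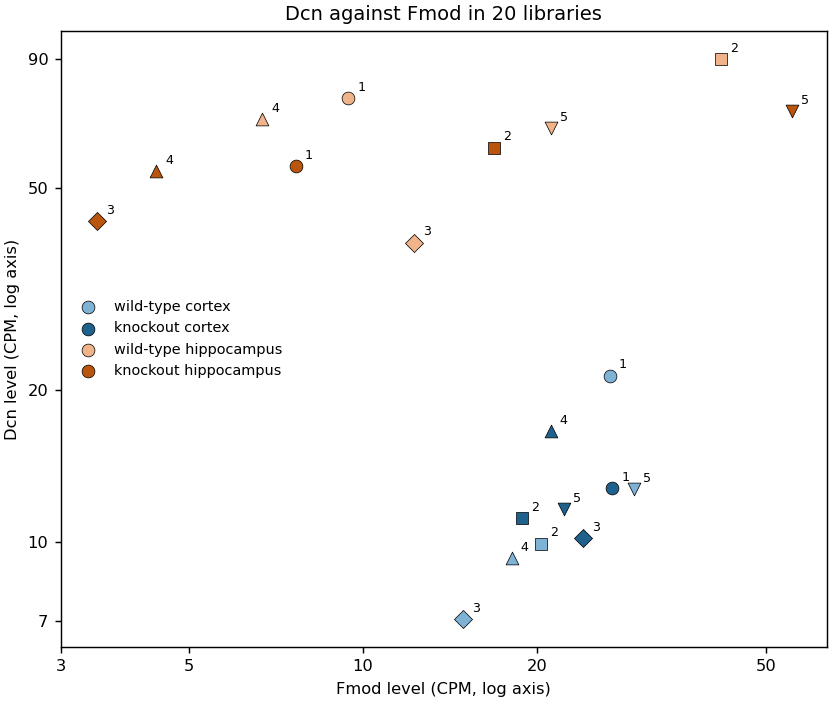
Level of Dcn against that of Fmod (CPM, both axes log) in the 20 libraries, with replicate numbers beside the points. Cortex libraries form one cloud low on the Dcn axis, and hippocampus libraries lie above it and reach from 3.46 to 55.3 CPM of Fmod.

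Genes with the most similar pattern were sought among 13982 other genes with at least 1 CPM, by the correlation of the log2 level with the mean pattern of the 8 genes over the 20 libraries, after the group means were taken away. The highest was Aebp1, a collagen-binding matrix protein, at r 0.957, followed by Slc6a20a, an imino acid transporter, at 0.951, Ptgds, the prostaglandin D synthase of the meninges, at 0.940 and Serping1, the inhibitor of complement C1, at 0.936. Mgp, Slc22a8, Omd, Bmp7, Col1a2 and Fbln1 completed the first 10, from 0.928 down to 0.914. The values are a description that the 2 high hippocampus libraries weigh on, and without these the r of the 10 genes ran from 0.842 to 0.941. Leaving out the 3 libraries with the most Ttr kept 3 of the 10 among the first 10, though their r stayed between 0.906 and 0.964. Of the members, which are part of the mean, Slc6a13 at 0.955 and Aldh1a2 at 0.953 followed it most closely and Dcn at 0.635 least. For Igf2 the value was 0.793, and 0.954 without the 3 libraries with the most Ttr.

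The other genes of the same families and pathways were described from lists. Among the 22 other leptomeningeal fibroblast genes, 0 of 22 tested passed between genotypes in cortex and 0 of 20 in hippocampus in edgeR. An unadjusted p under 0.05 was reached by 3 and 0, beside 14.8% and 3.78% of all genes tested. In cortex 19 of the 22 log2 fold changes were above 0, with a median of 0.19 against 0.00 over all genes tested. In hippocampus 16 of 20 were below 0, with a median of -0.16 against 0.01. Col1a2, Mgp and Fbln1 of this list followed the members' mean pattern over libraries, so these directions are not independent of each other. Wild-type replicate 3 had the lowest sum of the list in cortex, at 113 CPM against 124 to 160 CPM in the other wild-type libraries. Col1a2, a chain of type I collagen, had a log2 fold change of 0.47 (SE 0.16) in cortex with an edgeR adjusted p of 0.245, and -0.06 (SE 0.44) in hippocampus. Cemip, a hyaluronan-degrading protein, had -0.01 (SE 0.06) and 0.22 (SE 0.12). Slc13a4, a sulfate transporter, had 0.27 (SE 0.18) and 0.09 (SE 0.65). Between regions in wild type, 4 of 22 passed as higher in hippocampus and 2 as lower. Of all genes tested there, 18.8% were higher and 39.5% passed in either direction. Fbln1, the matrix protein fibulin 1, rose by 1.09 (SE 0.20), Itgbl1 by 0.63 (SE 0.10) and Cemip by 0.30 (SE 0.09), and Thbs2, thrombospondin 2, fell by 0.63 (SE 0.11), all on the log2 scale. In knockout 3 of 21 passed, all higher: Fbln1 at 0.63, Cemip at 0.53 and Itgbl1 at 0.32, where 19.2% of all genes tested were higher.

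The small leucine-rich proteoglycan family has 16 listed genes, 4 of them members, and 12 were tested in each genotype and each region comparison. Between genotypes 0 passed in either region in edgeR. With an unadjusted p under 0.05 there were 2 in cortex and 0 in hippocampus, beside 14.8% and 3.78% of all genes tested. Prelp, which anchors basement membranes to collagen, had log2 fold changes of 0.03 (SE 0.14) in cortex and 0.03 (SE 0.19) in hippocampus. Biglycan, from Bgn, had 0.21 (SE 0.10) and 0.04 (SE 0.23), and Ecm2 had 0.11 (SE 0.14) and 0.02 (SE 0.16). Between regions 7 of 12 were higher in wild-type hippocampus and 4 of 12 in knockout hippocampus, and 0 were lower. Of all genes tested, 18.8% and 19.2% were higher, and 39.5% and 38.8% passed in either direction. The counts include the members Dcn and Lum in both genotypes and Ogn in wild type. Nyx, also on the list, lay at 0.208 to 0.565 CPM in wild-type cortex and 0.823 to 1.55 CPM in wild-type hippocampus. A gene that entered the test only through its hippocampus level could hardly come out lower, so these counts are a description only. The median log2 fold change of the list was 0.57 in wild type and 0.27 in knockout. Ecm2 was higher by 1.04 (SE 0.14) and 0.94 (SE 0.16) on the log2 scale in wild type and knockout, and Prelp by 0.95 (SE 0.16) and 0.95 (SE 0.18), with edgeR adjusted p-values from 5.93e-05 to 0.000892.

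Receptors and binding proteins of insulin-like growth factors were listed with Igf2. Of 15 genes tested, Igf2 included, 0 passed between genotypes in either region in edgeR. In cortex 5 had an unadjusted p under 0.05 and in hippocampus 0, beside 14.8% and 3.78% of all genes tested. Igf1r, the receptor that carries the IGF2 signal, had log2 fold changes of 0.16 (SE 0.08) in cortex and 0.13 (SE 0.09) in hippocampus. Igfbp5, a binding protein, had -0.01 (SE 0.06) and -0.17 (SE 0.09), and the adaptor Irs2 had 0.09 (SE 0.12) and -0.03 (SE 0.09). Between regions 1 was higher in hippocampus and 4 were lower, in each genotype, beside 39.5% and 38.8% of all genes tested that were called. Igfbp3 was the higher one, by 0.74 (SE 0.13) in wild type and 0.85 (SE 0.08) in knockout. Igfbp6, a binding protein with a preference for IGF2, fell by 2.01 (SE 0.29) and 2.08 (SE 0.17), the RNA-binding Igf2bp2 fell by 1.78 (SE 0.27) in wild type, and Igf1r fell by 0.34 (SE 0.09) and 0.36 (SE 0.08) on the log2 scale.

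Retinoic acid genes, which act around Aldh1a2, were called between regions about as often as genes in general. Between genotypes 0 of 17 passed in cortex and 0 of 16 in hippocampus in edgeR. An unadjusted p under 0.05 was reached by 1 and 0 of them, beside 14.8% and 3.78% of all genes tested. Aldh1a1, another enzyme that makes retinoic acid, had log2 fold changes of -0.07 (SE 0.06) and -0.07 (SE 0.09), and the receptors Rxrb and Rxra lay between -0.13 and -0.02. Between regions 4 of 17 were higher and 4 lower in wild-type hippocampus, and 5 and 4 in knockout, where 39.5% and 38.8% of all genes tested were called. The receptors Rxrg and Rarb fell by 2.02 (SE 0.16) and 1.69 (SE 0.14) in wild type and by 2.13 (SE 0.22) and 1.96 (SE 0.12) in knockout. Rdh10, which makes retinaldehyde, was higher in wild-type hippocampus by 0.39 (SE 0.08), and the receptor Rxra by 0.30 (SE 0.07). In knockout Aldh1a1 was higher by 0.35 (SE 0.06), and Rbp4, the retinol carrier of plasma, fell by 0.73 (SE 0.15) on the log2 scale. The group means of these 4 genes moved the same way in the other genotype. From cortex to hippocampus, wild-type Aldh1a1 went from 40.3 to 52.2 CPM and Rbp4 from 8.76 to 5.37 CPM. Knockout Rdh10 went from 9.38 to 12.5 CPM and Rxra from 36.3 to 43.4 CPM.

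Genes of GABA synthesis and transport, the setting of Slc6a13, formed a list of 10. Between genotypes 0 of 10, Slc6a13 included, passed in either region in edgeR. In cortex 1 had an unadjusted p under 0.05 and in hippocampus 2, beside 14.8% and 3.78% of all genes tested. Gad1, a GABA-making enzyme, had log2 fold changes of -0.02 (SE 0.06) in cortex and -0.00 (SE 0.05) in hippocampus, and Abat, which breaks GABA down, 0.04 (SE 0.07) and -0.05 (SE 0.05). Between regions 5 of 10 passed in each genotype, all lower in hippocampus, beside 39.5% and 38.8% of all genes tested that were called in either direction. Slc32a1, the vesicular GABA transporter, fell by 0.69 (SE 0.09) in wild type and 0.71 (SE 0.09) in knockout, and Gad2, another GABA-making enzyme, by 0.53 (SE 0.10) and 0.56 (SE 0.08) on the log2 scale.

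Markers of the other cells at the brain surface and ventricles were set beside the members. In the genotype comparisons 0 genes of the choroid plexus, ependyma, endothelium, mural cell, border macrophage, surface astrocyte, arachnoid barrier and red blood cell lists passed in edgeR. At an unadjusted p under 0.05 these lists held between 0 and 4 genes in cortex and between 0 and 2 in hippocampus. Of all genes tested, 14.8% in cortex and 3.78% in hippocampus were under that p. The choroid plexus list lay on one side, with 8 of 8 tested genes above 0 in cortex at a median log2 fold change of 0.88 and 13 of 13 in hippocampus at a median of 0.64. In cortex 1 library stood apart, knockout replicate 1, where the list summed to 293 CPM against 21.4 to 27.1 CPM in the other 4 knockout and at most 27.6 CPM in the wild-type libraries. Its part in the cortex median was not tested. Myoc, the gene of myocilin in astrocytes of the brain surface, stood at 18.4 ± 4.43 CPM in wild-type cortex and 8.58 ± 2.37 CPM in knockout cortex, and at 20.0 ± 2.40 and 11.9 ± 2.67 CPM in hippocampus (SD, n = 5 each), with edgeR adjusted p-values of 0.0843 and 0.709. Between regions 39.5% of all genes tested passed in wild type and 38.8% in knockout, with 18.8% and 19.2% higher in hippocampus. In wild type and knockout, 5 of 8 and 6 of 13 choroid plexus genes were higher there, and 5 of 5 and 6 of 6 ependymal genes. In cortex alone only 8 of 17 choroid plexus and 3 of 6 ependymal genes had enough counts to be tested. Genes that entered only through their hippocampus level could hardly come out lower, so these counts are a description only. Surface astrocyte genes were higher in 3 and 2 of 5 cases, Gfap by 1.73 (SE 0.20) and 1.76 (SE 0.07) on the log2 scale. Lower in hippocampus were 5 and 4 of 12 endothelial genes, and 2 of 4 arachnoid barrier genes in each genotype, namely Dpp4 and Klf5. Of 12 mural cell genes, 1 was higher and 2 lower in wild type and 3 were lower in knockout. No border macrophage gene passed in edgeR, of 6 and 7 tested, with 0 and 2 at an unadjusted p under 0.05, and 0 of 5 and 2 of 5 red blood cell genes were lower.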

How the data were processed

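Total RNA was sequenced from both brain regions, in 4 groups of 5 libraries, with groups and replicate numbers taken from the sample titles. The authors deposited expected counts as a table for each region, of 17442 genes for cortex and 17586 for hippocampus. These are estimated counts, not scaled for depth: 22.6% to 27.3% of the values of a library lay more than 0.001 away from a whole number. STAR 2.7.3a, Partek and mm10 are named per the submitters' processing notes. Annotation and strand setting were not given in the sources used here. If reads were shared between overlapping genes, Igf2 with Igf2os is the pair that this would touch. Rn45s, a ribosomal RNA precursor, made up 0.661% to 4.00% of a library.

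After rounding, edgeR 4.0.16 (R 4.3.3) was run with filterByExpr, TMM scaling, quasi-likelihood tests and Benjamini-Hochberg adjustment at 0.05 over all genes tested. Genotypes were compared within each region on its 10 libraries, regions within each genotype, and the interaction over 20 libraries. No 2 libraries of a group agreed within sampling noise, with a lowest chi-square per degree of freedom of 3.45. Levels are CPM scaled over the 20 libraries, and per length they are divided by the exonic length of GENCODE M21. Log2 levels for the pattern used a prior count of 2. The fit was tested on simulated counts. Alternatives were DESeq2 1.42.0, limma-voom (limma 3.58.1), other scaling, no filter, the replicate number as a block, Rn45s removed, 1 fit over all libraries, 3 libraries with the most Ttr left out and each library left out in turn. Leaving out wild-type hippocampus replicate 2 and knockout hippocampus replicate 5 together was chosen after seeing the data.

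The members and the 13 other lists were chosen with earlier results of these data known. The text names the 8 members, list genes that passed (up to 4 with the smallest p per list and region comparison), up to 3 with the highest level where none passed, Ttr, Ncs1 and Myoc, and the 10 genes most like and 5 least like the members' mean pattern. Some of the genes so picked are left unnamed, and 1 is not reported here. Start positions of 7 of the 8 members were those of RefSeq (GRCm38.p6), and gene positions are printed as RefSeq gives them.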

Additional observations from a re-analysis of the deposited data

Results flagged for a closer look

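A library far from the other 4 of its group was looked for in the 32 groups formed by 8 genes and 4 sample groups, by the gap to the nearest library over the range of the group. It was found in 4, where chance marks about 1 in 20. Ogn in wild-type hippocampus reached 30.9 CPM in replicate 2, with the gap at 0.749 of the range. Aldh1a2 reached 16.3 CPM in the same library, at 0.716, and Slc6a13 16.3 CPM, at 0.831. Fmod in knockout hippocampus reached 55.3 CPM in replicate 5, at 0.741. Of these 4, 3 fell in 1 library, so they are not independent of each other.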

How the results depend on the processing

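In the 5 comparisons, the number of members called stayed within 1.5 times its value under every alternative other than leaving out 1 library. With 1 library left out, it ran from 2 to 5 between regions in knockout, with 5 without hippocampus replicate 5. The number of genes called in cortex between genotypes was 169 in DESeq2, 7 in 1 fit over 20 libraries and from 4 to 563 with 1 library left out, with 563 without wild-type replicate 5. In hippocampus it was 0 without the 3 libraries with the most Ttr, where fewer samples entered, and 2 without wild-type replicate 2 and knockout replicate 5. For the interaction it was 1 in DESeq2 and from 0 to 1 with 1 library left out, with 1 without knockout cortex replicate 5.

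Of the log2 fold changes of the members under settings that kept or left out several libraries, 343 kept their side of the threshold and direction, 14 changed direction and 3 lost a call, those of Ogn between regions in wild type, where 1 fit gave an edgeR adjusted p of 0.136. None of the 14 had been called. In limma-voom, Islr between genotypes in cortex was 0.00292, Igf2 in hippocampus -0.24 and Aldh1a2 between regions in wild type -0.0685. Without the 3 libraries with the most Ttr, the genotype difference in hippocampus was 0.00482 for Ogn, -0.15 for Lum, 0.0846 for Fmod and -0.17 for Igf2, the region difference was 0.0176 for Islr in wild type and -0.00276 for Igf2 and 0.10 for Slc6a13 in knockout, and the interaction for Fmod was 0.0321. Under total count scaling, Slc6a13 between regions in knockout was 0.0171. The cause was not tested.

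With 1 library left out, these log2 fold changes crossed 0. Between genotypes in cortex: Dcn from -0.0847 to 0.36, Fmod -0.0588 to 0.19, Slc6a13 -0.18 to 0.0781, Aldh1a2 -0.0261 to 0.24 and Islr -0.11 to 0.0406. Between genotypes in hippocampus: Ogn -0.72 to 0.23, Lum -0.0789 to 0.16, Fmod -1.16 to 0.52, Igf2 -0.57 to 0.33, Slc6a13 -0.87 to 0.30, Aldh1a2 -1.14 to 0.10 and Islr -0.47 to 0.0541. Between regions in wild type: Slc6a13 -0.36 to 0.40, Aldh1a2 -0.38 to 0.25 and Islr -0.35 to 0.0630. Between regions in knockout: Ogn -0.28 to 0.54, Igf2 -0.13 to 0.73 and Slc6a13 -0.58 to 0.20. In the interaction: Fmod -1.22 to 0.47, Igf2 -0.79 to 0.12, Slc6a13 -0.84 to 0.35, Aldh1a2 -1.22 to 0.0255 and Islr -0.46 to 0.0747.

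With the replicate number as a block, 4 genes were called between genotypes in cortex, 4 in hippocampus, 6629 between regions in wild type, 6250 in knockout and 0 in the interaction, and 0, 0, 3, 2 and 0 of the members. Igf2 between genotypes in hippocampus was then -0.20 and Aldh1a2 between regions in wild type -0.0265. The pairing is not given by the labels. Libraries with the same number had correlated deviations of -0.143 to 0.372, and all 5 pairs were closest to their own number only between wild-type cortex and wild-type hippocampus. The low counts of Lum and Slc6a13 limit their precision.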

Other observations

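The genes whose pattern ran most against the mean pattern of the 8 genes over the 20 libraries, after the group means were taken away, were Camta1 at r -0.879, Ap3d1 at -0.776, Vsig2 at -0.772, Tbc1d22a at -0.743 and Nrxn3 at -0.741. Camta1 encodes a transcription activator of neurons and Nrxn3 a presynaptic adhesion protein. Without wild-type hippocampus replicate 2 and knockout hippocampus replicate 5, the r of these 5 genes lay between -0.823 and -0.620. The values are a description over libraries that share the TMM scaling.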
